A study of Arabidopsis thaliana with 6 samples.

Results

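AGL30, AGL65, AGL66 and AGL104 encode the MADS-box transcription factors of maturing pollen in Arabidopsis thaliana. They were chosen by name, and each was read by 1 probe set that the array annotation assigns to that gene alone, 4 of 22746 tested probe sets. RNA came from unopened flower buds of wild type Col plants (the Columbia accession, 3 arrays) and of ddm1 plants from the F6 inbred generation (3 arrays), grown on soil in long days. DDM1 is a remodelling ATPase through which plants keep DNA methylated and transposable elements silent. The labels do not name the ddm1 allele, and an inbred generation is stated for the mutant only, so the mutation and the inbreeding history cannot be told apart. The replicates are labelled as biological, and whether each is 1 plant or a pool is not stated.

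MADS-box proteins bind DNA as dimers at AT-rich CArG boxes. The MIKC* class is a branch of the family in which partners come from separate clades. AGL30, AGL65 and AGL94 form the P clade, and AGL66, AGL67 and AGL104 the S clade. Heterodimers of AGL66 or AGL104 with AGL30 or AGL65 act late in pollen development, where they switch the transcriptome from immature to mature pollen. Plants lacking several of these factors make pollen that germinates poorly.

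Values are log2 expression, centred for each gene on a baseline set by the authors, so differences between arrays are kept and the level of a gene is lost. Neither the expression level of the regulators nor their order by level can be given, and the same holds for the markers of flower buds. In bulk buds, fewer cells of a type and less RNA per cell cannot be told apart. Array medians lay between -0.00642 and 0.0175, and SDs between replicates had a median of 0.0636 over wild type and 0.0770 over ddm1 probe sets. Calls were made where the limma fit gave an adjusted p under 0.05, with Benjamini-Hochberg adjustment over all 22746, and differences are given with the standard error (SE) of that fit and n = 3 arrays per genotype.

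The first question was which of the pollen regulators differed in mutant buds. AGL66 and AGL30 fell, AGL104 was lower on average but was not called, and AGL65 differed little. Of the 4 genes 2 were called lower and 0 higher, against 5.68% and 3.50% of all probe sets, and 3 were lower at an unadjusted p under 0.05, against 14.6% of all. In each of the 4 genes the highest ddm1 array lay below the lowest wild type array, which held for 16.7% of all probe sets. An exact permutation test, two-sided, gave p = 0.1 for each of the 4, AGL65 included. That is the smallest p possible with 3 arrays against 3, so this test cannot tell the 4 genes apart. The median difference of the 4 was -0.69 on the log2 scale, and that of all tested probe sets was 0.00446. The genes and the lists below were chosen with earlier results of these data known, so these counts are a description.

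**Figure D1:**
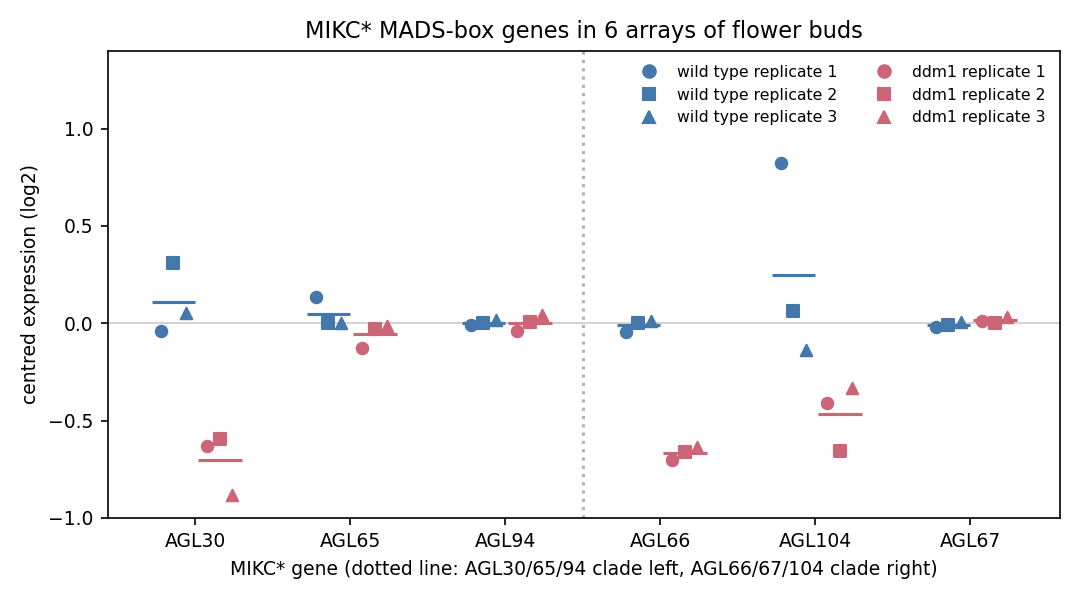
Centred log2 expression (vertical axis) of the 6 MIKC* genes of both clades in each array, with wild type in blue, ddm1 in red, symbols for the replicates and a bar at each group mean. AGL30 and AGL66 are lower in all 3 ddm1 arrays by a wide gap, AGL104 is spread by wild type replicate 1 at 0.82, and AGL65, AGL94 and AGL67 stay near 0.

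AGL66 (AT1G77980, probe set number 262179), an S-clade factor, stood at -0.05, 0 and 0.01 in wild type replicates 1 to 3. In the ddm1 replicates it stood at -0.70, -0.66 and -0.64. The arrays of each genotype lay close together, spanning 0.0609 in wild type and 0.0652 in ddm1, and a gap of 0.59 parted the genotypes. AGL66 thus fell by 0.65 ± 0.03 SE (95% confidence interval -0.74 to -0.57, adjusted p = 0.000295 by limma), to 63.5% of wild type. It ranked 232 by p among all probe sets, and its fall was larger than that of 50.8% of the probe sets called lower. Every fit that left out an array kept the call, with differences of -0.67 to -0.64.

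AGL30 (AT2G03060, probe set number 266793), a P-clade factor, stood at -0.04, 0.31 and 0.05 in wild type replicates 1 to 3. The ddm1 replicates stood at -0.63, -0.59 and -0.88. Wild type replicate 2 was the highest array and ddm1 replicate 3 the lowest, and a gap of 0.55 parted the genotypes. AGL30 fell by 0.81 ± 0.12 SE (interval -1.12 to -0.50, adjusted p = 0.0183 by limma), to 57.1% of wild type. This was a deeper mean fall than that of AGL66 with a wider spread, the SD being 0.183 in wild type and 0.159 in ddm1 against 0.0320 and 0.0330 for AGL66. Leaving out wild type replicate 3 ended the AGL30 call (adjusted p = 0.0576), as did a fit without variance moderation (0.0810), while its difference stayed between -0.88 and -0.71 with any array left out.

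AGL104 (AT1G22130, probe set number 255952), an S-clade factor like AGL66, stood at 0.82, 0.06 and -0.14 in wild type replicates 1 to 3. In ddm1 it stood at -0.41, -0.66 and -0.34. Wild type replicate 1 lay far above the other arrays, and the gap between the genotypes was 0.196. The mean difference of -0.72 ± 0.27 SE (interval -1.39 to -0.05) lay between those of AGL66 and AGL30, and was not called (adjusted p = 0.192 by limma, unadjusted p = 0.0398). Its wild type SD of 0.506 was larger than that of 99.5% of all probe sets. Without wild type replicate 1 the difference was -0.43 ± 0.13 and still not called (adjusted p = 0.176). With array weights it was called (-0.85 ± 0.21, adjusted p = 0.0422), in a fit that gave ddm1 replicate 2, its lowest array, a weight of 5.59.

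AGL65 (AT1G18750, probe set number 261423), a P-clade factor like AGL30, stood at 0.14, 0 and 0 in wild type replicates 1 to 3. In ddm1 it stood at -0.13, -0.03 and -0.01. The genotypes were parted by only 0.0130, and in both of them replicate 1 lay farthest from 0. The difference was -0.10 ± 0.06 SE (interval -0.24 to 0.04, adjusted p = 0.352 by limma). The lower bound lies above the whole intervals of AGL66 and AGL30. Whether AGL65 RNA lay above the array's background in these buds is unknown.

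**Figure D2:**
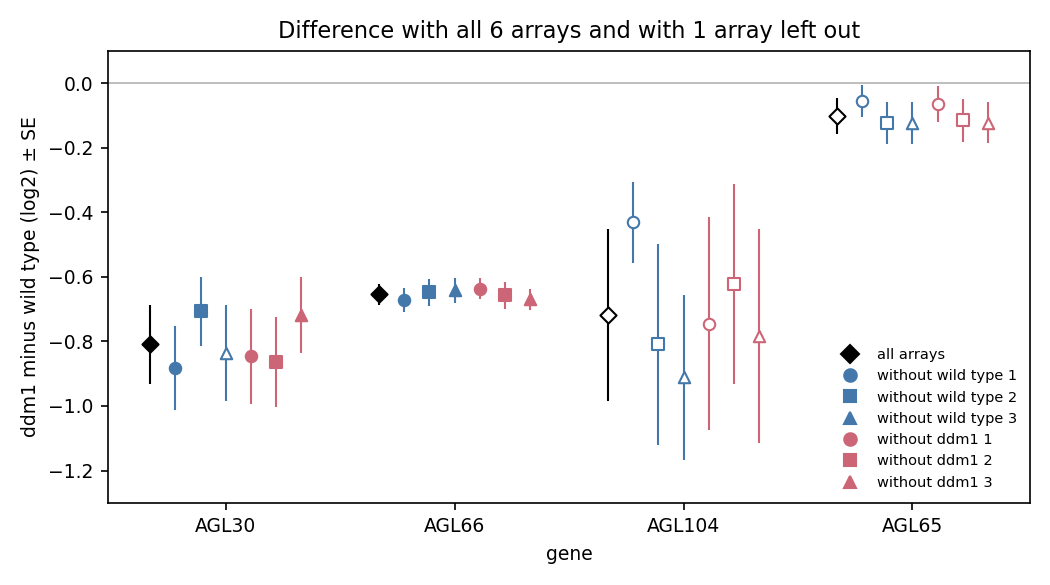
Difference of ddm1 from wild type (log2, vertical axis) ± SE for the 4 regulators with all arrays (black diamond) and with 1 array left out (blue for wild type, red for ddm1), filled where the adjusted p was under 0.05. AGL66 is filled throughout, AGL30 is open only without wild type replicate 3, AGL104 moves to -0.43 without wild type replicate 1, and AGL65 stays near 0.

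The regulators that fell were then compared with those that did not, by taking the value of a gene minus that of another within each array. AGL65 minus AGL66 was 0.18, 0 and -0.01 in the wild type arrays, whereas the ddm1 arrays gave 0.57, 0.63 and 0.62. The genotype difference of this pair was 0.55 ± 0.07 SE (95% interval from the pooled SD 0.37 to 0.74). This is a 1.47-fold gap between the mean changes of the 2 genes, and the groups did not overlap. AGL30 minus AGL65 also parted the genotypes, with -0.18, 0.31 and 0.05 in wild type against -0.50, -0.57 and -0.87 in ddm1, a difference of -0.71 ± 0.18 (interval -1.21 to -0.20). For both pairs the exact permutation test, two-sided, gave p = 0.1 and p = 0.2 adjusted over the 6 pairs. With 3 arrays against 3 the smallest p possible is 0.1, so no pair could pass the threshold, and the test cannot establish an unequal change.

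AGL104 could not be told from either side with the same clarity. AGL65 minus AGL104 did not overlap between the genotypes, and its difference was 0.62 ± 0.27 SE with an interval of -0.14 to 1.37 (exact permutation p = 0.1, adjusted 0.2). AGL66 minus AGL104 differed by 0.06 ± 0.33 between the genotypes (interval -0.84 to 0.97, exact permutation p = 0.9, adjusted 0.9), and AGL30 minus AGL104 by -0.09 ± 0.40 (-1.21 to 1.02, exact p = 0.8, adjusted 0.9). These intervals are wide, and they leave room for differences of close to 1 on the log2 scale in either direction. AGL30 minus AGL66 differed by -0.15 ± 0.14 (-0.55 to 0.24, exact p = 0.6, adjusted 0.9). The 2 called genes come from different clades. By mean difference, AGL66 and AGL104 of the S clade were at -0.65 and -0.72, and AGL30 and AGL65 of the P clade at -0.81 and -0.10. Since no unequal change was established, whether the changes follow the clades cannot be told.

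**Figure D3:**
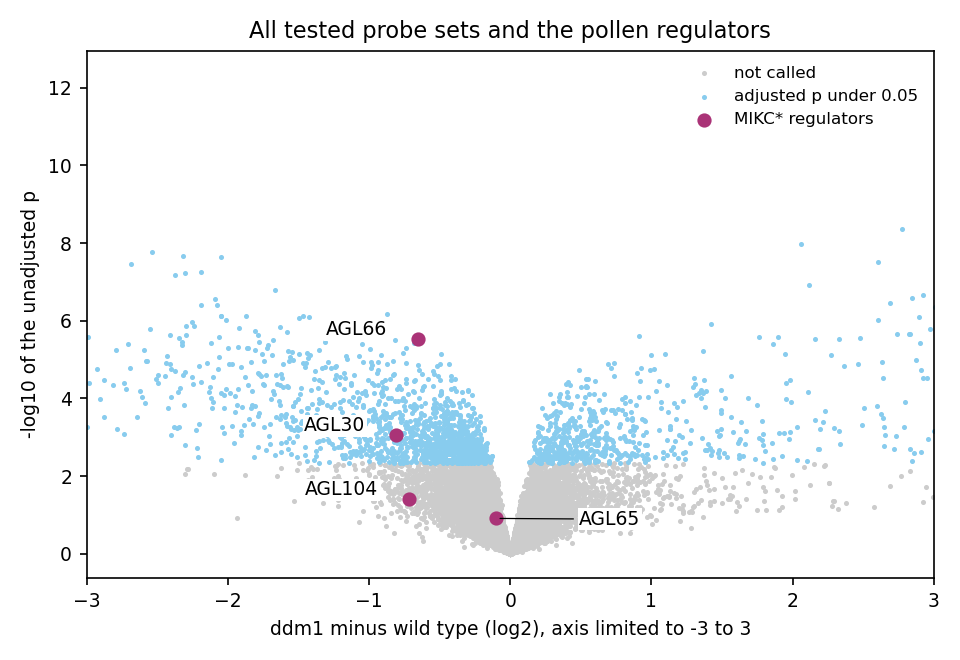
Difference of ddm1 from wild type (log2, horizontal axis, limited to -3 to 3 with probe sets beyond it not drawn) against -log10 of the unadjusted p for all tested probe sets, with called ones in light blue and the 4 regulators in purple. AGL66 and AGL30 lie among the called falls, and AGL104 at -0.72 and AGL65 at -0.10 lie among the probe sets not called.

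The other members of the clades, AGL67 and AGL94, were flat. AGL94, of the P clade, ran from -0.01 to 0.01 in wild type and from -0.04 to 0.04 in ddm1 (difference 0.00 ± 0.03 SE, adjusted p = 0.985 by limma). AGL67, of the S clade, ran from -0.02 to 0.00 and from 0 to 0.03 (0.02 ± 0.03, adjusted p = 0.705). Only 17.2% of all probe sets had a smaller wild type SD than AGL94, and 17.0% a smaller one than AGL67. AGL67 is known for its role in seeds and lies 2 loci from AGL66 in the RefSeq gene order, and these close neighbours gave unlike values. Whether AGL67 and AGL94 RNA lay above the array's background in these buds is unknown, so flat values need not mean an unchanged level.

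The rest of the MADS-box family was compared in the same fit. The family list, without the 4 pollen regulators, holds 97 genes, of which 36 had a probe set of their own (38 probe sets, AGL67 and AGL94 included). Of the 38, limma called 1 lower and 0 higher, where 5.68% and 3.50% of all probe sets were called, so in a list of this length the counts lie near the background. At an unadjusted p under 0.05, 3 were lower and 1 higher, against 3330 and 1932 of all 22746. The median difference was 0.0188, and 33 of the 38 lay within 0.2 of 0, as did 16313 of all 22746. In 30 of the 38 the wild type SD was under 0.05, as in 9786 of all 22746 probe sets, so a large part of the family gave nearly constant signals in buds.

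The gene called was AGL87. AGL87 stood at 0.72, 0.28 and 0.33 in wild type and at -1.60, -1.38 and -1.16 in ddm1. The genotypes lay far apart, and AGL87 fell by 1.83 ± 0.17 SE (adjusted p = 0.00307 by limma), a deeper fall than that of any of the 4 pollen regulators. The floral gene AGL42, related to the flowering promoter SOC1, stood at 0.61, 0.78 and 0.07 in wild type and at -0.20, -0.12 and -0.50 in ddm1 (-0.76 ± 0.21, adjusted p = 0.1004). AGL18, a flowering repressor that is also expressed in pollen, stood at 0.06, 0.18 and 0 in wild type and at -0.51, -0.17 and -0.82 in ddm1 (-0.58 ± 0.17, adjusted p = 0.112). Neither was called, although their groups did not overlap, and ddm1 replicate 2 was the ddm1 array nearest to wild type for both. Each was called in some alternatives by limma, among them AGL18 without ddm1 replicate 2 (-0.75, adjusted p = 0.0359) and AGL42 without wild type replicate 3 (-0.97, adjusted p = 0.0336). Both fits leave out the array of its genotype nearest to the other genotype, which widens the difference, so these calls add no support.

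AGL16, a target of a microRNA and a repressor of flowering, lay higher in ddm1 by 0.39 ± 0.15 SE without passing the test (adjusted p = 0.194 by limma). Its groups did not overlap, a pattern that 10.4% of all probe sets showed in this direction, and it was called without ddm1 replicate 2 (0.55, adjusted p = 0.0112). That array was the ddm1 array nearest to wild type, so leaving it out widens the difference. The largest mean rise, of AGL24, a flowering promoter named after its value was seen, was 0.41 ± 0.28 and not called (adjusted p = 0.459). At the other end AGL71, AGL21 and AGL96 differed by 0.01 ± 0.04, 0.01 ± 0.03 and 0.01 ± 0.03.

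**Figure D4:**
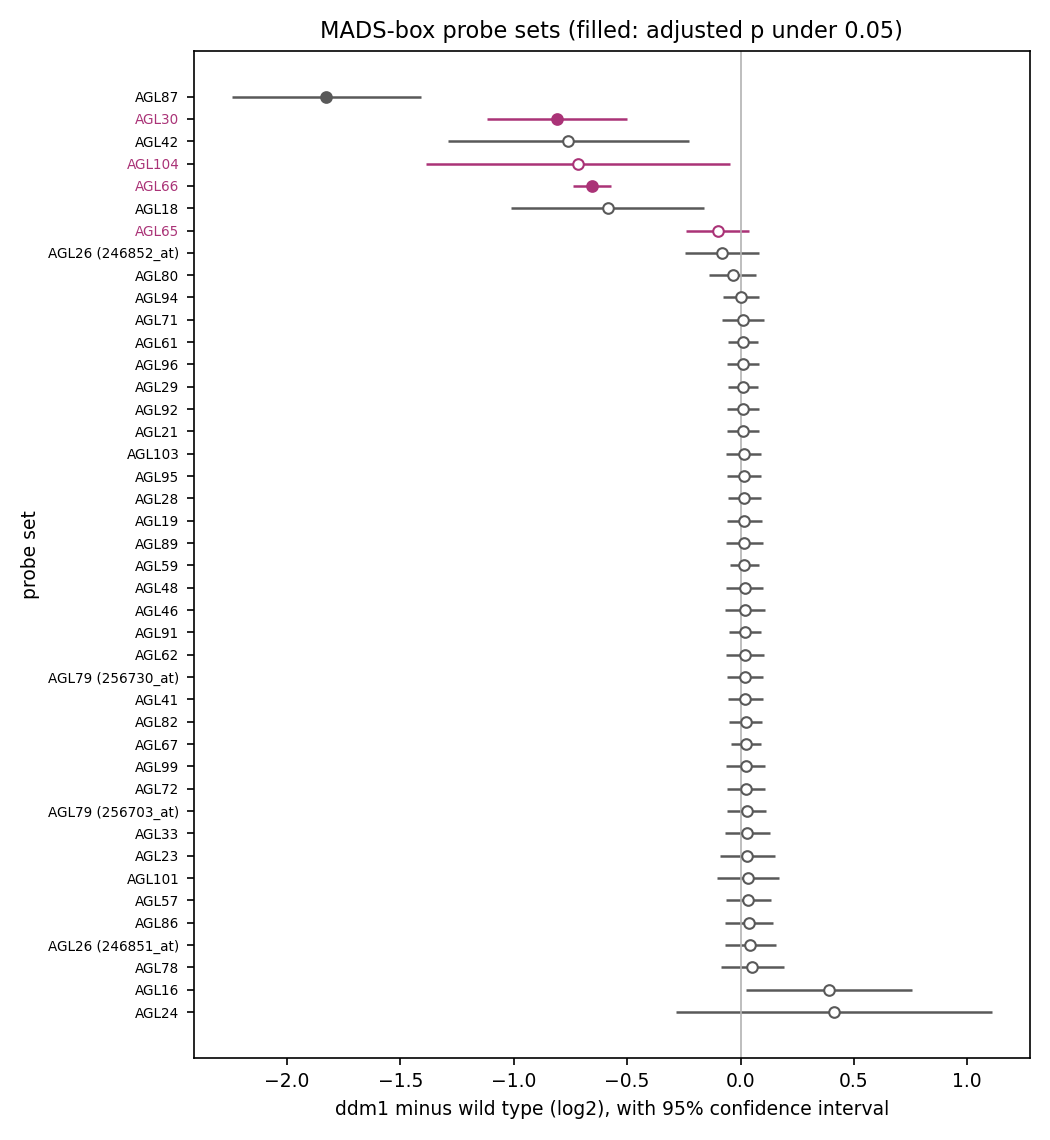
Difference of ddm1 from wild type (log2, horizontal axis) with its 95% confidence interval for the 4 pollen regulators (purple) and the 38 other MADS-box probe sets (grey), ordered by size and filled where the adjusted p was under 0.05. AGL87, AGL30 and AGL66 are filled, and 33 of the 38 others lie within 0.2 of 0.

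The genes most like each regulator were found by Pearson's r over the 6 arrays, among 902 probe sets with a RefSeq gene symbol and an SD of at least 0.1. All genes share the same 6 arrays of 2 genotypes, so r takes in the genotype difference and is given as a description. Among the regulators themselves r was 0.941 for AGL30 and AGL66, 0.842 for AGL65 and AGL104, and 0.722 for AGL66 and AGL104. It was 0.649 for AGL65 and AGL66, 0.600 for AGL30 and AGL104, and 0.470 for AGL30 and AGL65. AGL65 and AGL104 shared wild type replicate 1 as their highest array. AGL65 itself had an SD under the 0.1 asked of the compared probe sets, so its r values here and below rest on small differences.

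AGL66 was matched at an r of at least 0.95 by 47 of the 902, AGL30 by 10, AGL104 by 3 and AGL65 by 0. The 3 most like AGL66 were SHT (r = 0.997), an enzyme of the tapetum that makes hydroxycinnamoyl spermidines of the pollen coat, the vacuolar sugar transporter gene TMT3 (0.995) and CLUB (0.993), a subunit of a vesicle tethering complex. SHT stood at 0, 0.09 and 0.04 in wild type, and at -0.78, -0.81 and -0.71 in ddm1 (-0.82 ± 0.04 SE, adjusted p = 0.0003 by limma). TMT3 fell by 1.72 ± 0.10 (adjusted p = 0.000441) and CLUB by 0.50 ± 0.03 (adjusted p = 0.000922). The least like were QQS (r = -0.986), a starch-related gene that rose by 5.20 ± 0.22, and ATPC1 (-0.984), a chloroplast ATP synthase subunit that rose by 0.26 ± 0.03.

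The 3 most like AGL30 were the exocyst subunit gene SEC15A (r = 0.989), the aldehyde dehydrogenase gene ALDH2C4 (0.980) and the lectin gene JAL23 (0.974). SEC15A fell by 0.48 ± 0.05 SE (adjusted p = 0.0065 by limma), whereas ALDH2C4 (-0.21 ± 0.05, adjusted p = 0.0531) and JAL23 (-0.49 ± 0.11, adjusted p = 0.0523) were not called. The least like were P1R1 (r = -0.990), which rose by 0.86 ± 0.10, and the small GTPase gene ARLA1D (-0.984), at 0.20 ± 0.05 and not called.

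The genes most like AGL104 and AGL65 were not called, and since r takes in the genotype difference, this adds nothing about those regulators. Nearest to AGL104 were the exocyst subunit gene SEC6 (r = 0.967, difference -0.14 ± 0.07 SE), the RNA-binding protein gene RBP45B (0.964, -0.18 ± 0.05) and NERD (0.959, -0.27 ± 0.06), named for its part in DNA methylation. In all 3, as in AGL104, wild type replicate 1 was the highest array. The least like AGL104 were the metal transporter gene MTP11 (r = -0.954, 0.19 ± 0.08) and the splicing factor gene ATU2AF35A (-0.925, 0.14 ± 0.08). Nearest to AGL65 were OTP43 (r = 0.948, -0.33 ± 0.11), needed for mitochondrial RNA splicing, the ovule transcription factor gene VDD (0.942, -0.14 ± 0.13) and MAG2 (0.928, -0.09 ± 0.08), which acts in transport between the endoplasmic reticulum and the Golgi. The least like AGL65 were CYP71B6 (r = -0.990, 0.36 ± 0.18) and HEME1 (-0.954, 0.35 ± 0.12).

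Other genes of pollen were set beside the regulators. In the list for the vegetative cell and the pollen tube it forms, 8 of 54 genes were measured, and 4 were called lower and 0 higher, against 5.68% and 3.50% of all probe sets. The other 4 lay within 0.2 of 0, so the list was split and its median of -0.89 describes no gene. CHX19, a cation/proton exchanger gene, stood at 0.05, 0 and 0.00 in wild type and at -3.09, -2.42 and -3.38 in ddm1, and fell by 2.98 ± 0.25 SE (adjusted p = 0.0022 by limma). SWEET5, the sugar transporter gene of the vegetative cell, fell by 3.61 ± 0.36. The pollen allergen-like gene AT5G45880 fell by 1.93 ± 0.11, and the reproductive actin gene ACT12 fell by 1.78 ± 0.09. These 4 falls were each deeper than those of AGL30 and AGL66. Not called were CHX21 (0.01 ± 0.03), another exchanger gene, another reproductive actin gene, ACT11 (0.03 ± 0.13), and ANX1 (0.01 ± 0.03) and ANX2 (-0.01 ± 0.05), whose receptor kinases keep pollen tubes intact. Whether CHX21, ANX1 and ANX2 RNA lay above the array's background is unknown, so their flat values need not mean an unchanged level.

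Of 13 pollen transcription factors outside the MADS-box family 2 were measured, and limma called 0 of them, against 5.68% lower and 3.50% higher of all probe sets. BZIP18 lay at -0.01, 0.09 and 0 in wild type and at -0.29, -0.63 and -0.12 in ddm1 (-0.37 ± 0.14 SE, adjusted p = 0.185 and unadjusted p = 0.0370 by limma). The array weights fit called it (-0.63, adjusted p = 0.0126). That fit gave ddm1 replicate 2, its lowest array, a weight of 5.59, against 0.383 and 0.317 for ddm1 replicates 1 and 3. BZIP34, needed for the pollen wall, was flat at 0.00 ± 0.03, and whether its RNA lay above the array's background is unknown. The 10 sperm and generative cell genes were not analysed here.

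Markers of other cells of the bud were measured as well. Of the tapetum and pollen wall list, the nursing layer of the anther and its products, 4 of 22 genes were measured and 2 were called lower, against 5.68% of all probe sets. The tapetal regulator AMS fell by 1.23 ± 0.08 SE, and RPG1 (SWEET8), a sugar transporter gene needed for the pollen wall, fell by 0.63 ± 0.10 (adjusted p = 0.0231 by limma), a call lost in 4 of 6 leave-one-out fits. SPL, needed to form sporogenous cells, was at -0.82 ± 0.26 and not called, and EMS1, a receptor kinase gene that specifies the tapetum, was at 0.01 ± 0.10. The mean of these 4 probe sets ranged from 0.00624 to 0.248 in wild type and from -0.72 to -0.48 in ddm1. The mean of the 4 pollen regulators ranged from -0.02 to 0.22 and from -0.48 to -0.47, and that of the 8 vegetative cell genes from -0.01 to 0.03 and from -1.47 to -1.13. The last mean joins 4 deep falls with 4 genes near 0.

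The remaining lists had 3 or 4 measured genes each, too few to set against the 5.68% called lower and 3.50% called higher of all probe sets. The same limit holds for the 4 regulators, the 4 tapetum and pollen wall genes and the 2 pollen transcription factors. Of 4 meiosis genes out of 13, 0 were called by limma, and 0 had an unadjusted p under 0.05: ZYP1B was at -0.19 ± 0.09 SE, SPO11-1 at -0.07 ± 0.07, SDS at -0.05 ± 0.06 and MER3 at 0.01 ± 0.03. Of 4 pistil and ovule genes out of 14, NGA1, a regulator of style development, was called higher (0.33 ± 0.06, adjusted p = 0.0333 by limma), and that call was lost in 5 of 6 leave-one-out fits. SPT (0.29 ± 0.10), SEU (0.18 ± 0.21) and INO (-0.08 ± 0.08) were not called. Of 3 green tissue genes out of 23, LHCB4.2 was called higher (0.38 ± 0.05, adjusted p = 0.0141 by limma), a call lost in 3 of 6 such fits, beside LHCB4.1 (0.35 ± 0.09) and RCA (0.20 ± 0.05). The green tissue mean ranged from -0.12 to -0.04 in wild type and from 0.17 to 0.28 in ddm1. The pistil mean ranged from -0.17 to 0.02 and from 0.05 to 0.14, and the meiosis mean from 0.04 to 0.09 and from -0.08 to 0.01. In these small shifts the genotypes did not overlap. The mean of the 38 other MADS-box probe sets did not overlap either (0.02 to 0.04 against -0.03 to 0.01), so this does not mark a cell type. Taken singly, 0 of the 4 meiosis genes had groups that did not overlap, against 16.7% lower and 10.4% higher of all probe sets. Since centring removed the levels, no marker can be said to be at 0. Signal over background is unknown too, so a flat value such as that of MER3 need not mean an unchanged level. The part of the marker shifts in the falls of AGL30 and AGL66 was not tested.

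**Figure D5:**
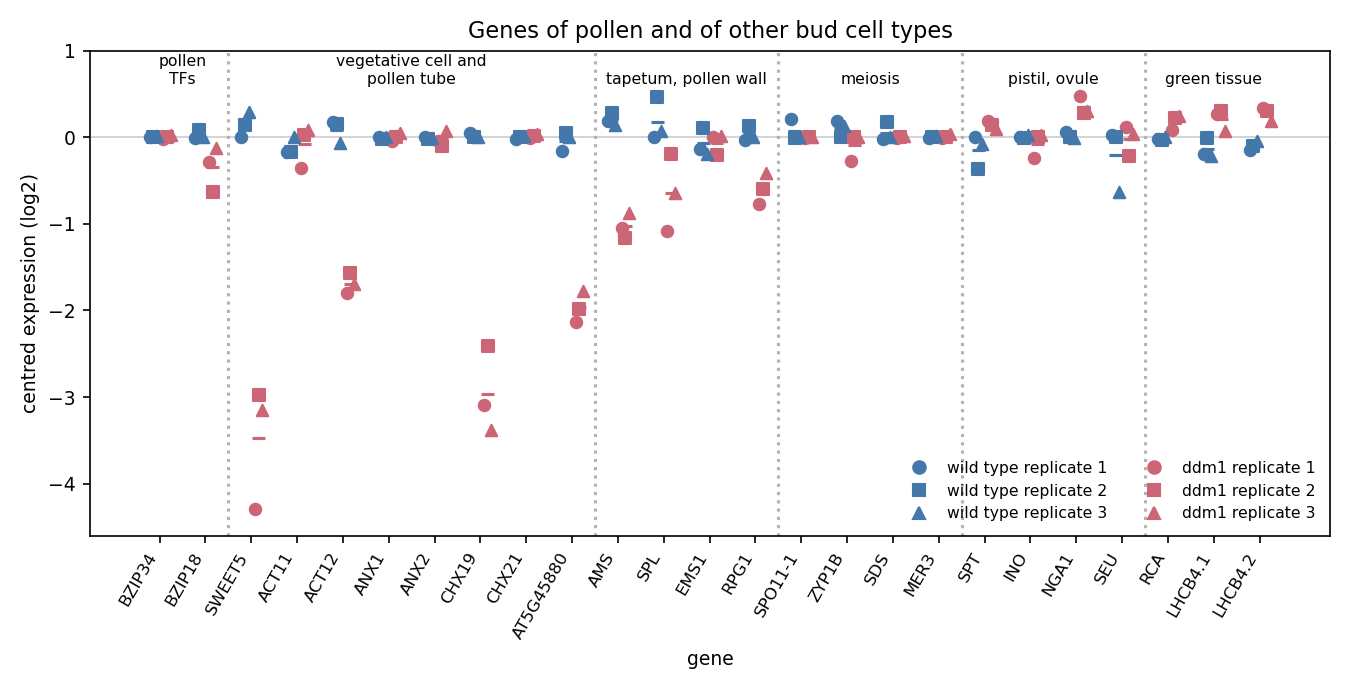
Centred log2 expression (vertical axis) in each array for the measured genes of the pollen transcription factor, vegetative cell, tapetum, meiosis, pistil and green tissue lists, with wild type in blue, ddm1 in red and a bar at each group mean. SWEET5, CHX19, AT5G45880, ACT12 and AMS lie low in all 3 ddm1 arrays, while meiosis genes stay near 0.

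The genes around each regulator were examined as well. In windows of 25 consecutive loci, 12 on each side in the RefSeq order, 0 loci around AGL65, AGL66 and AGL104 were of a pseudogene type in RefSeq, and 2 were around AGL30. Among the other measured probe sets of the windows, 0 of 9 around AGL30, 0 of 5 around AGL65 and 0 of 14 around AGL66 were called by limma in either direction. With 5.68% of all probe sets called lower and 3.50% higher, windows of this size would hold few calls in any case. The differences ranged from -0.31 to 0.06 around AGL30, from -0.21 to 0.11 around AGL65 and from -0.19 to 0.36 around AGL66. Around AGL104 they ranged from -0.66 to 0.10. The lowest, AT1G22170 at -0.66 ± 0.32 SE, was close in size to the -0.72 of AGL104 and was not called either (adjusted p = 0.301 by limma). Its ddm1 arrays stood at -1.32, -0.25 and -0.21, so its mean rests mostly on ddm1 replicate 1, whereas AGL104 was spread by wild type replicate 1. In this window 1 of 8 was called, AT1G22140, 2 loci away (-0.34 ± 0.07 SE, adjusted p = 0.0388 by limma), and this call was lost in 5 of 6 leave-one-out fits, all but that without ddm1 replicate 2.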

How the data were processed

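Expression was measured in 6 samples on 1-colour arrays, 3 per genotype as labelled. The authors computed expression with GCRMA, per the submitters' processing notes, without a stated version. The values they deposited are log2 (base inferred from GCRMA and the range of -10.03 to 8.57), centred by the authors on a baseline whose samples are not given, so signal over background is unknown and the number of arrays limits precision. No batch is named. Of 22810 probe sets 64 controls were left out. The array annotation named 1 gene for 13513, several for 503 and none for 8730, and 13436 were matched by gene number to RefSeq (TAIR10.1), used only for names and gene order. An alias that is another gene's symbol was not used.

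The fit was limma 3.58.1 (lmFit, eBayes) in R 4.3.3 with genotype as the single term, two-sided, with Benjamini-Hochberg adjustment over 22746. Regulators, singly and in pairs, were also compared between the genotypes by exact permutation (scipy 1.17.1, Python 3.11.15). The fit was tested on simulated data. Alternatives were median centring, no moderation, a robust prior, array weights, a replicate block, each array left out, plain _at, single-gene and SD-filtered probe sets. Regulators and lists were chosen with earlier results of these data known. Named were the regulators, of each list the 4 lowest adjusted p (for the MADS-box and pollen lists also the 4 highest; all of lists with 8 or fewer), AGL67 and AGL94, and for each regulator the 3 most and 2 least alike genes. AT1G22140, AT1G22170 and AGL24 were named after their values were seen. Promoter and protein sequences were not used here.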

Additional observations from a re-analysis of the deposited data

How the results depend on the processing

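No difference of a regulator, or of the 56 other named genes counted below, turned direction past the threshold in any alternative run. AT1G22170 is not among the 56, and its alternatives were not examined. AGL66 kept its call in all 14 alternatives (adjusted p = 4.495e-05 to 0.00729 by limma), and AGL65 stayed uncalled in all 13 that gave a value (the filter on an SD of at least 0.1 left it out). AGL30 lost its call without variance moderation (-0.81, adjusted p = 0.0810) and with a replicate block (-0.81, adjusted p = 0.0538), and with 1 array left out its difference ranged from -0.88 to -0.71 (adjusted p up to 0.0576). AGL104 was called only with array weights (-0.85, adjusted p = 0.0422), a fit that gave ddm1 replicate 2 a weight of 5.59. Its adjusted p was otherwise 0.0533 to 0.376. No pair of regulators could pass the exact test, so the alternatives bear only on the sizes: with 1 array left out AGL30 minus AGL104 ranged from -0.45 to 0.10 and AGL66 minus AGL104 from -0.24 to 0.27, taking either sign, while the other 4 pairs kept theirs.

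The table of all probe sets held 795 called higher and 1291 called lower. These counts became 373 and 429 without moderation, 2185 and 3597 with array weights, 433 and 553 with a replicate block, 502 and 683 among single-gene probe sets (fewer tested), and 432 to 788 and 629 to 1011 with 1 array left out. For 56 other named genes, AT1G22170 left out, 723 of 772 values stayed as called, 31 calls were lost and 18 were gained. These alternatives were chosen after seeing the data. With the block AGL87 (adjusted p = 0.0534), SEC15A (0.0521) and ATPC1 (0.0619) were not called. For the moderation, weights, block and left-out arrays, the cause was not tested.

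Deviations from the genotype means correlated at 0.0752, 0.0900 and 0.0159 between arrays of the same replicate number. Between arrays of different numbers they correlated at -0.0907 to 0.0229. Whether arrays of the same number were handled together is not stated, and these few values cannot decide it. Wild type replicate 3 was closer to ddm1 replicate 1 (0.0229) than to its namesake.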
